A study of Homo sapiens with 30 samples.

Results

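A group of 9 genes of the NRF2 antioxidant program was followed in 30 RNA-Seq libraries of Omomyc-treated and untreated cells: HMOX1, NQO1, GCLC, GCLM, TXNRD1, SRXN1, PGD, TXN and OSGIN1. The genes were chosen by name as known NRF2 targets, and all 9 were found, with 1 row each, among the 57992 genes of the deposited table. HCT116 is a human colon carcinoma line in which MYC protein is stabilized, and Ramos is a Burkitt lymphoma line with a MYC translocation. Omomyc is a miniprotein made from the dimerization and DNA-binding part of MYC, with changes in its leucine zipper, and it acts as a MYC inhibitor. HCT116 cells were untreated or received 2 or 10 µM Omomyc for 6 or 24 h, and Ramos cells were untreated or received 500 nM or 2.5 µM for 6 or 24 h, with 3 replicates in each of the 10 groups. Total RNA depleted of rRNA was sequenced with a stranded kit.

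Several features of the groups limit the comparisons. The labels give the lower HCT116 dose as 2 µM where the study's methods give 2.5 µM, and a tag reads 4 h for libraries whose titles read 24 h; the label dose and the title time are used here. Each line has a single untreated group with no stated time, so all 4 treated groups of a line share the same 3 control libraries. The methods deliver Omomyc to HCT116 cells with ProteoJuice, a protein transfection reagent, and do not say whether the untreated cells received it; no such reagent is described for the Ramos cells. An effect of the reagent and one of Omomyc therefore cannot be told apart in HCT116 cells. The sources do not say that the replicates are separate cultures, so p-values measure the spread between these samples, which may be technical.

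NRF2, encoded by NFE2L2, is a transcription factor that KEAP1 holds at a low level by directing it to degradation in unstressed cells. Oxidants and electrophiles release it, and it then pairs with small MAF proteins on antioxidant response elements (AREs), sites that the repressor BACH1 can also occupy. Its targets make glutathione, recycle thioredoxin, supply NADPH, and break down quinones and heme.

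The RefSeq promoter table, on GRCh38.p14, held 8 of the 9 genes with 9 promoters, since TXNRD1 has a pair of start sites; HMOX1 was not among them. Each promoter runs from 250 bases before a start site to 50 after it. Bases outside these bounds were not searched, so a gene without a match may still hold a site elsewhere. The ARE core, TGACNNNGC on either strand, was found in 3 of these 8 genes, in the PGD and GCLM promoters and in both TXNRD1 promoters. Counted by promoter and not by gene, 4687 of 35116 promoters of that length (13.3%) hold it. Matches before a start site are shown with their surroundings because an ARE is the element that NRF2 binds; the upstream TXNRD1 promoter holds 2 matches, of which the one after the start site is not printed. Capitals mark the core, read in the PGD, GCLM and second TXNRD1 windows as its reverse complement.
PGD, plus strand, chr1:10398853-10398881, within an intron in GENCODE, the core starting 201 bases before the start site: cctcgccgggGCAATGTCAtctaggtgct
GCLM, minus strand, chr1:93909446-93909474, overlapping an exon, 34 bases before: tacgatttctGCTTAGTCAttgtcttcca
TXNRD1, plus strand, chr12:104215670-104215698, upstream of the gene, 99 bases before: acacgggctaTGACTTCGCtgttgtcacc
TXNRD1, the downstream start site, plus strand, chr12:104286920-104286948, overlapping an exon, 102 bases before: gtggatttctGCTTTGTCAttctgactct
These are matches of letters and not shown to be bound sites. The E box CACGTG, the hexamer that MYC and MAX bind, was found in 0 of the 8 genes and in 2548 of the 35116 promoters (7.26%).

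The unit is RPKM, in which the authors divided reads by gene length and by library size, so levels of different genes can be set side by side. The number of reads per library is unknown. The RPKM of a library summed to 593633 to 1051040. The highest sum belongs to replicate 3 of HCT116 cells at 10 µM and 6 h, which stood apart from its mates (791845 and 795720). Calls of the chosen genes that rest on it are given with and without it, while the lists of other genes were counted only with it. Markers fitted the labelled lines: the summed RPKM of 8 epithelial genes was 1560 to 2502 in HCT116 and 0.329 to 2.33 in Ramos libraries, and that of 8 B cell genes was 2748 to 3181 in Ramos and 1.0175 to 3.67 in HCT116 libraries. In bulk RNA, fewer expressing cells and less RNA per cell cannot be told apart.

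All 9 genes were expressed at a higher level in untreated HCT116 than in untreated Ramos cells. Differences between groups were tested with limma on log2(RPKM + 0.5) over all genes that averaged 0.5 RPKM or more in the libraries compared, and a gene was called at a Benjamini-Hochberg adjusted p under 0.05. All 9 genes were called and higher in HCT116 cells, against 84.6% of all 15647 tested genes called in either direction, 45.7% higher and 39% lower. The difference was widest for NQO1, a quinone reductase. Its level was 429, 446 and 463 RPKM in the untreated HCT116 libraries and 1.97, 2.08 and 1.54 RPKM in the untreated Ramos libraries, a 239-fold ratio of means. OSGIN1, an oxidative stress-induced growth inhibitor, was at 4.62 to 5.40 RPKM in HCT116 and 0.0651 to 0.296 RPKM in Ramos libraries, and it passed the filter only through HCT116 cells. HMOX1, the heme oxygenase that opens the heme ring, had a 6.27-fold higher mean in HCT116 cells. The narrowest difference was that of TXN, cytosolic thioredoxin, at 1.59-fold, and the remaining 5 genes lay between 1.92-fold (TXNRD1, the reductase that recharges thioredoxin) and 3.03-fold (SRXN1, which repairs overoxidized peroxiredoxins). All 9 remained higher under every alternative setting run.

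In untreated HCT116 cells the order of mean RPKM was NQO1 (446 ± 17.2, SD, n = 3), TXN (226 ± 13.1), TXNRD1 (168 ± 8.99), PGD (101 ± 0.390), SRXN1 (47.2 ± 1.96), GCLC (23.4 ± 0.221), GCLM (10.6 ± 0.681), HMOX1 (7.78 ± 1.07) and OSGIN1 (5.05 ± 0.398). Neighbours in this order did not overlap. Untreated Ramos cells kept this order for the other genes but placed NQO1 seventh, between GCLM (4.57 ± 0.648) and HMOX1 (1.24 ± 0.293). OSGIN1 stayed under the filter in every Ramos comparison, with no Ramos library above 0.685 RPKM, and was not tested there.

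**Figure D1:**
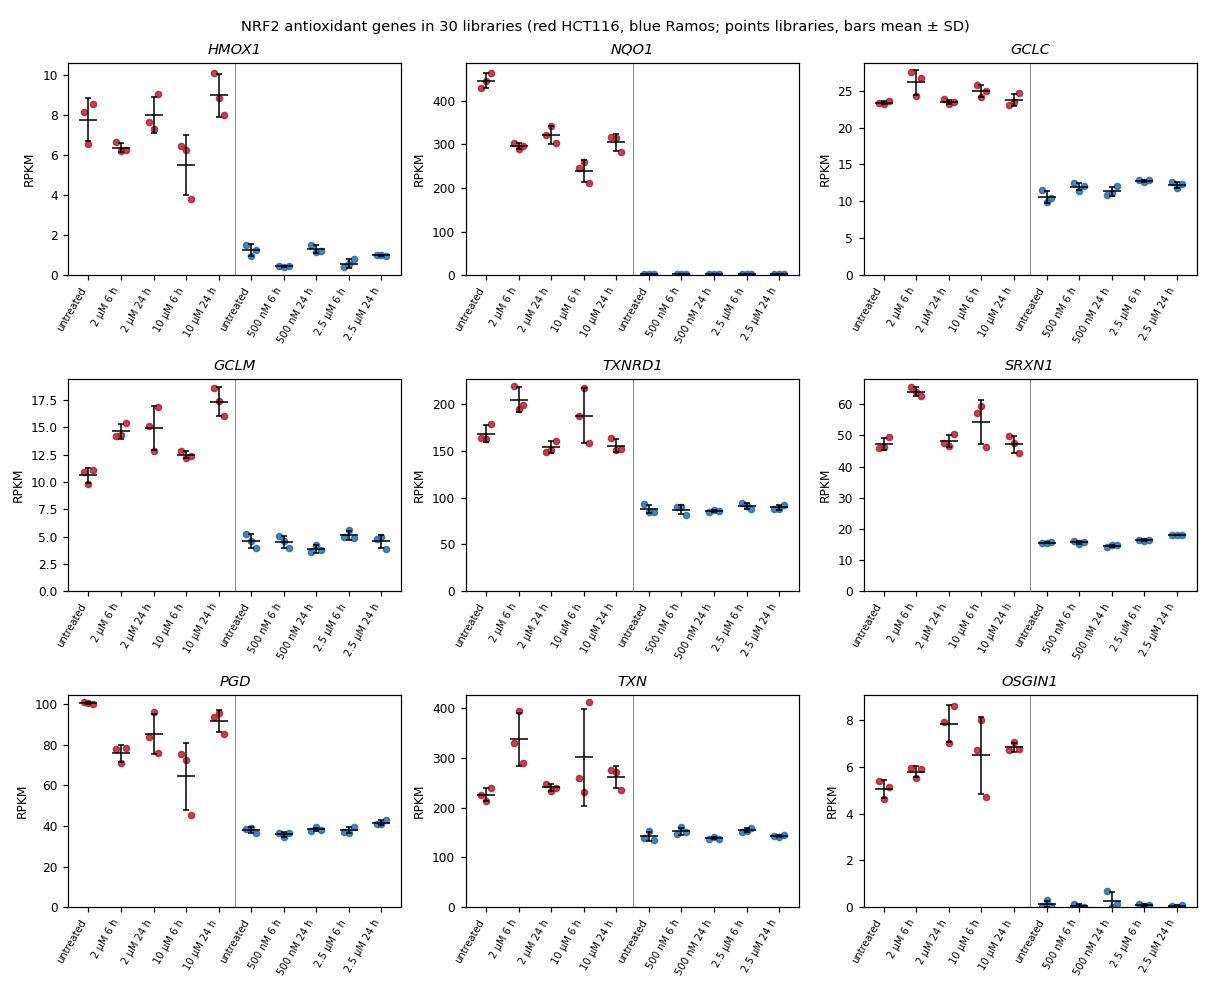
RPKM of the 9 genes in each of the 30 libraries (points; red, HCT116; blue, Ramos) with the mean and SD of each group of 3; each panel has its own linear axis from 0. NQO1 sits at 211 to 463 RPKM in HCT116 libraries and under 4 RPKM in Ramos libraries, and GCLM is above its untreated range in all 4 treated HCT116 groups.

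NQO1 was called lower in all 4 treated HCT116 groups and PGD in 3 of them, and GCLM and OSGIN1 were the ones that rose at 24 h at both doses. At 2 µM and 6 h, 6 of the 9 genes were called, 4 higher and 2 lower, where 47.3% of all 14550 tested genes were called (15.5% higher, 31.8% lower). At 2 µM and 24 h 4 were called, 2 higher and 2 lower (27.3% of all genes, 16.6% higher and 10.8% lower). At 10 µM and 6 h 2 were called, both lower (30% of all genes, 8.84% higher and 21.2% lower), and at 10 µM and 24 h 4 were called, 3 higher and 1 lower (35.2% of all genes, 19.5% higher and 15.7% lower). Groups did not overlap for 57.8%, 44.9%, 50.2% and 49.3% of all genes in the same order, so a gap between groups was common in each. The median difference of the 9 genes was 0.18, 0.03, 0.15 and 0.02 on the log2 scale in these 4 comparisons, and that of all tested genes was -0.12, 0.04, -0.11 and 0.02.

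NQO1 reduces quinones by a route that avoids semiquinone radicals. Against 429 to 463 RPKM in untreated cells, its level was 303, 290 and 297 RPKM at 2 µM and 6 h, and 321, 342 and 302 RPKM at 2 µM and 24 h. At 10 µM it was 246, 259 and 211 RPKM at 6 h and 317, 315 and 283 RPKM at 24 h. Every treated library was under every untreated one. The mean fell to 66.5%, 72.1%, 53.5% and 68.4% of untreated in the order given, with log2 differences of -0.59 ± 0.06 (SE), -0.47 ± 0.06, -0.91 ± 0.12 and -0.55 ± 0.06 and limma adjusted p of 0.00015, 0.00088, 0.0022 and 0.00024. NQO1 stayed called and lower under every alternative setting and with any 1 library left out, and without the library that stood apart the 10 µM, 6 h difference was -0.82.

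PGD, 6-phosphogluconate dehydrogenase, makes NADPH in the pentose phosphate pathway. Its untreated level was 101, 101 and 100.2 RPKM, and at 2 µM and 6 h it was 77.7, 70.9 and 78.6 RPKM, a log2 difference of -0.41 ± 0.06 (adjusted p = 0.00074, limma). At 10 µM and 6 h it was 75.4, 72.6 and 45.6 RPKM, a difference of -0.67 ± 0.19 (adjusted p = 0.032); without replicate 3, the low library, the difference was -0.44 and it was still called, but the call was lost with no filter and when any 1 of the 3 untreated libraries was left out. At 24 h the level was closer to untreated, at 83.7, 95.8 and 75.9 RPKM with 2 µM (-0.25 ± 0.07, adjusted p = 0.038) and 93.5, 95.5 and 85.4 RPKM with 10 µM (-0.14 ± 0.05, adjusted p = 0.068). Every treated library was below the untreated range, but the 2 µM, 24 h call was lost under 8 of the alternatives.

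GCLM and GCLC are the modifier and catalytic subunits of glutamate-cysteine ligase, the first enzyme of glutathione synthesis, and they behaved differently. GCLM was at 10.9, 9.83 and 11.1 RPKM in untreated HCT116 cells and at 14.2, 14.3 and 15.4 RPKM with 2 µM at 6 h (0.45 ± 0.08, adjusted p = 0.0017, limma). It was at 15.1, 12.9 and 16.9 RPKM with 2 µM at 24 h (0.47 ± 0.10, adjusted p = 0.0087) and at 18.6, 17.4 and 16.0 RPKM with 10 µM at 24 h (0.69 ± 0.08, adjusted p = 0.00020). The last is a mean of 164% of untreated, the highest of the 4, and was called under every alternative. At 10 µM and 6 h GCLM was at 12.9, 12.2 and 12.4 RPKM, above the untreated range but not called (0.23 ± 0.10, adjusted p = 0.12); without replicate 3 it was called at 0.23 (adjusted p = 0.044). GCLC was called in none of the 4 comparisons by limma, with differences between 0.01 and 0.16 and a widest upper 95% bound of 0.31. Its lowest adjusted p among them was 0.087, at 2 µM and 6 h, the 1 comparison in which it passed an unadjusted 0.05.

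TXN, TXNRD1 and SRXN1 rose at 6 h with 2 µM in HCT116 cells, while in the list of other thioredoxins and peroxiredoxins 2 genes were higher and 2 lower of 11 tested, with a median difference of -0.11. Among all genes in that comparison 15.5% were higher and 31.8% lower, with a median of -0.12. TXN was at 226, 212 and 239 RPKM in untreated cells and at 329, 394 and 289 RPKM with 2 µM at 6 h (0.57 ± 0.11, adjusted p = 0.0023, limma). SRXN1 was at 45.8, 46.4 and 49.5 RPKM and then at 65.5, 64.0 and 62.8 RPKM (0.44 ± 0.06, adjusted p = 0.00045). TXNRD1 was at 164, 162 and 179 RPKM and then at 220, 195 and 199 RPKM (0.28 ± 0.07, adjusted p = 0.010). The TXNRD1 call was lost with quantile normalization and with an equal sum of RPKM. In all 3 genes the groups did not overlap, and at 24 h with 2 µM none of them was called against untreated cells. TXN was at 275, 272 and 236 RPKM with 10 µM at 24 h (0.21 ± 0.07, adjusted p = 0.049), a call that was lost under 11 of the alternatives.

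At 10 µM and 6 h the library that stood apart decided which of these genes were called. Its TXN level was 411 RPKM against 258 and 232 RPKM in its mates, its SRXN1 level 46.3 against 57.3 and 59.4 RPKM, and its TXNRD1 level 158 against 188 and 217 RPKM. With it, TXN (0.37 ± 0.21), SRXN1 (0.19 ± 0.12), TXNRD1 (0.15 ± 0.13) and OSGIN1 (0.30 ± 0.18) were not called. Without it, 6 of the 9 genes were called: NQO1 and PGD lower, and GCLM, TXNRD1 (0.26), SRXN1 (0.30) and OSGIN1 (0.50) higher, while TXN was at 0.12 and not called. The number of all genes called in that comparison went from 4439 to 7565.

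OSGIN1 and HMOX1 were the least abundant of the genes in HCT116 cells. OSGIN1 was at 5.40, 4.62 and 5.14 RPKM in untreated cells, at 7.92, 7.02 and 8.58 RPKM with 2 µM at 24 h (0.58 ± 0.09, adjusted p = 0.0033, limma) and at 6.70, 7.04 and 6.76 RPKM with 10 µM at 24 h (0.40 ± 0.08, adjusted p = 0.0051). All 6 of these treated libraries were above the untreated range. HMOX1 was called in none of the 4 comparisons by limma. It was at 8.19, 6.56 and 8.58 RPKM in untreated cells, 6.64, 6.24 and 6.25 RPKM with 2 µM at 6 h (-0.26 ± 0.11, unadjusted p = 0.039, adjusted p = 0.075) and 6.46, 6.27 and 3.79 RPKM with 10 µM at 6 h (-0.49 ± 0.21, unadjusted p = 0.047, adjusted p = 0.11). At 24 h its differences were 0.04 ± 0.11 and 0.20 ± 0.11.

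The scale of the libraries mattered for the 6 h rises. The RPKM sum averaged 619218 in the untreated and 783270 in the 2 µM, 6 h HCT116 libraries. The most abundant gene of these libraries, RN7SL1, was at 33081 to 56067 RPKM in the former and 70558 to 98291 RPKM in the latter. It was at 207392 RPKM in replicate 3 at 10 µM and 6 h. An equal sum therefore depends in part on such abundant genes. When each library was rescaled to an equal sum, the all-gene median difference at 2 µM and 6 h went from -0.12 to -0.42. The share of called genes that were higher moved from 32.7% to 6.76%, with 9218 of all 14601 genes called. With median-ratio scaling that share was 53.8%. There 8 of the 9 genes were called, 6 higher and 2 lower, as were 6566 of all 14532 genes, 3534 higher and 3032 lower. GCLC (0.30) and OSGIN1 (0.31) were among the higher. With the equal sum the differences of GCLM (0.12), SRXN1 (0.10) and TXN (0.23) were no longer called, that of TXNRD1 turned to -0.058, and those of NQO1 (-0.92), PGD (-0.75) and HMOX1 (-0.58) were called lower. Relative to the median of all genes the values moved little, from 0.56 to 0.54 for GCLM, 0.55 to 0.52 for SRXN1, 0.69 to 0.65 for TXN, 0.40 to 0.36 for TXNRD1 and -0.47 to -0.50 for NQO1. This follows from the scaling, which multiplies all genes of a library by the same factor, and is no test of the rises. At 10 µM and 6 h the share of called genes that were higher was 29.4%, and 4.28% with an equal sum; with that scaling the differences of GCLM (-0.25), TXNRD1 (-0.35), SRXN1 (-0.30), TXN (-0.13) and OSGIN1 (-0.15) had the opposite sign and were not called. At 24 h that share was 60.6% at 2 µM and 55.3% at 10 µM, and 23.0% and 20.4% with an equal sum, where GCLM stayed called at 0.32 and 0.50 and OSGIN1 at 10 µM (0.23) did not.

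**Figure D2:**
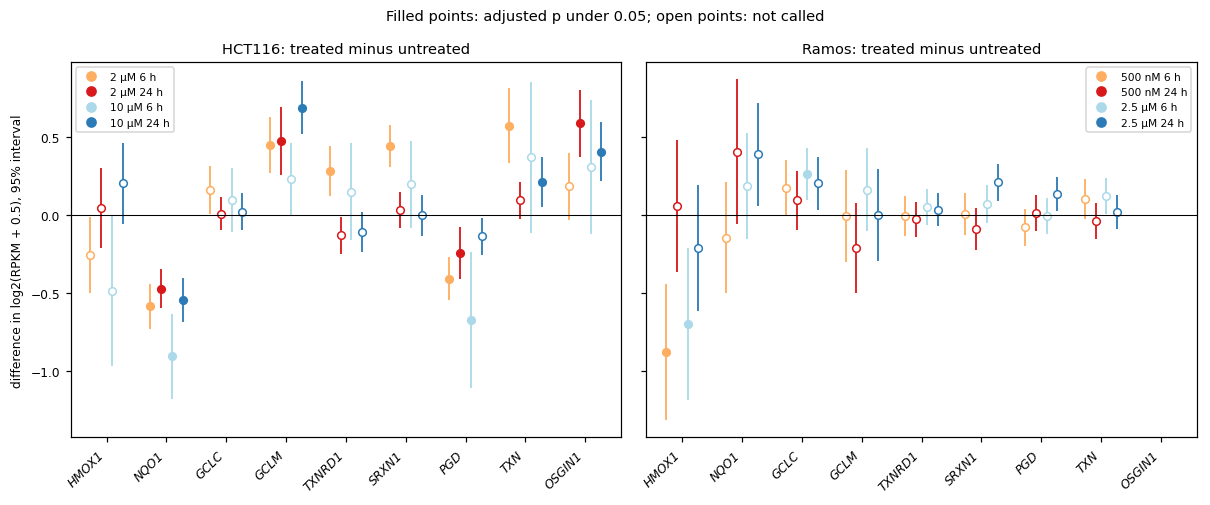
Difference in log2(RPKM + 0.5) from untreated cells with its 95% interval for each gene, dose and time; filled points were called at an adjusted p under 0.05 and open points were not. In HCT116 cells all 4 NQO1 points are filled and between -0.91 and -0.47, and in Ramos cells the filled points are those of HMOX1 at 6 h and GCLC at 2.5 µM and 6 h.

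In Ramos cells HMOX1 fell at 6 h at both doses and GCLC rose once, and no other of the 8 tested genes was called against untreated cells. A count of 1 gene was called at 500 nM and 6 h (23.6% of all 13614 genes, 13.8% higher and 9.73% lower) and 0 at 500 nM and 24 h (0.0146%, all higher). At 2.5 µM 2 were called at 6 h (27.9%, 17.3% higher and 10.7% lower) and 0 at 24 h (4.61%, 3.3% higher and 1.31% lower). Groups did not overlap for 41.4%, 11.5%, 44.7% and 27.4% of all genes in this order. At an unadjusted p under 0.05 in the same limma fits, 0 and 4 of the 8 genes passed in the 24 h comparisons at 500 nM and 2.5 µM, against 763 of 13674 and 2916 of 13607 genes in all. Rescaling to an equal sum called 6 of the 8 at 2.5 µM and 24 h, all higher. It also called 5362 of all 13619 genes, 5221 of them higher. The all-gene median went from 0.05 to 0.24 and the share of called genes that were higher from 71.6% to 97.4%. That share was 45.1% with median-ratio scaling, with 0 of the 8 genes and 350 of all 13600 genes called. At 6 h it was 58.7% at 500 nM and 61.8% at 2.5 µM, and 79.8% and 85.2% with an equal sum.

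HMOX1 was at 1.52, 0.936 and 1.27 RPKM in untreated Ramos cells and at 0.451, 0.403 and 0.456 RPKM with 500 nM at 6 h (-0.88 ± 0.19, adjusted p = 0.011, limma). With 2.5 µM at 6 h it was at 0.385, 0.537 and 0.806 RPKM (-0.70 ± 0.21, adjusted p = 0.040). All 6 of these libraries were below the untreated range, with means at 35.2% and 46.4% of untreated, and at 24 h the levels overlapped that range. At these levels near the filter the pseudocount shrinks a fold, and with a minimum mean of 2 RPKM the gene was not tested. The 500 nM call otherwise held under every alternative, and the 2.5 µM call was lost under 8. GCLC was at 11.5, 9.85 and 10.4 RPKM in untreated cells and 12.9, 12.6 and 12.9 RPKM with 2.5 µM at 6 h (0.26 ± 0.07, adjusted p = 0.028), and this call was lost under 6 alternatives.

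NQO1 in Ramos cells was at 1.45 to 3.62 RPKM over the 12 treated libraries and at 1.54 to 2.08 RPKM in the 3 untreated ones. Its differences were -0.15 ± 0.16 and 0.40 ± 0.21 at 500 nM, and 0.18 ± 0.15 and 0.39 ± 0.15 at 2.5 µM, at 6 and 24 h, and none was called. TXNRD1 and TXN, the most abundant of the genes in this line, moved by at most 0.12 on the log2 scale in the 4 comparisons. SRXN1 was at 15.3, 15.6 and 15.8 RPKM in untreated cells and at 18.1, 18.02 and 18.1 RPKM with 2.5 µM at 24 h, a gap between the groups that missed the threshold (0.21 ± 0.05, adjusted p = 0.059).

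Whether the lines responded differently was tested directly as an interaction of line and treatment, with 2 µM in HCT116 and 2.5 µM in Ramos cells, the nearest doses. At 6 h 5 of the 9 genes were called (40.6% of all 15562 genes, 12.2% higher and 28.4% lower in HCT116 relative to Ramos cells) and at 24 h 3 were called (16.3% of all 15714 genes, 6.81% higher and 9.51% lower). The change of NQO1 in HCT116 minus that in Ramos cells was -0.77 ± 0.13 at 6 h and -0.86 ± 0.13 at 24 h (adjusted p = 0.00083 and 0.0022, limma), and it was called under every alternative. The Ramos changes of NQO1 (0.18 and 0.39) were not called. Its untreated Ramos level was 1.54 to 2.08 RPKM, where the pseudocount shrinks a fold. The interaction of PGD was -0.40 ± 0.07 and -0.38 ± 0.10 (adjusted p = 0.0011 and 0.022). At 6 h TXN (0.45 ± 0.13, adjusted p = 0.018), SRXN1 (0.37 ± 0.06, adjusted p = 0.00085) and TXNRD1 (0.23 ± 0.09, adjusted p = 0.048) changed more upwards in HCT116 cells, values that turned to -0.027, -0.10 and -0.25 with an equal sum of RPKM and were then not called. The OSGIN1 call at 24 h (0.78 ± 0.19, adjusted p = 0.020) is not a comparison of measured responses, since the gene passed the filter only through HCT116 cells and its Ramos levels were under 0.7 RPKM; it was lost under 4 alternatives (pseudocount 0.1, no filter, the replicate block and all groups in one fit). For HMOX1, GCLC and GCLM the interaction was not called at either time, with 95% intervals at 6 h of -0.05 to 0.93, -0.30 to 0.09 and -0.01 to 0.58. At 24 h the unadjusted intervals were -0.15 to 0.67, -0.36 to -0.027 and 0.094 to 0.85. Those of GCLC and GCLM excluded 0 (limma adjusted p = 0.11 and 0.084). At an unadjusted p under 0.05, 7 of the 9 genes passed at 24 h, against 4948 of 15714 genes in all. The lines differ in tissue and, by the labels, in dose, though the methods give 2.5 µM as the lower HCT116 dose. They may also differ in the delivery reagent, since none is described for the Ramos cells. These cannot be told apart here.

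**Figure D3:**
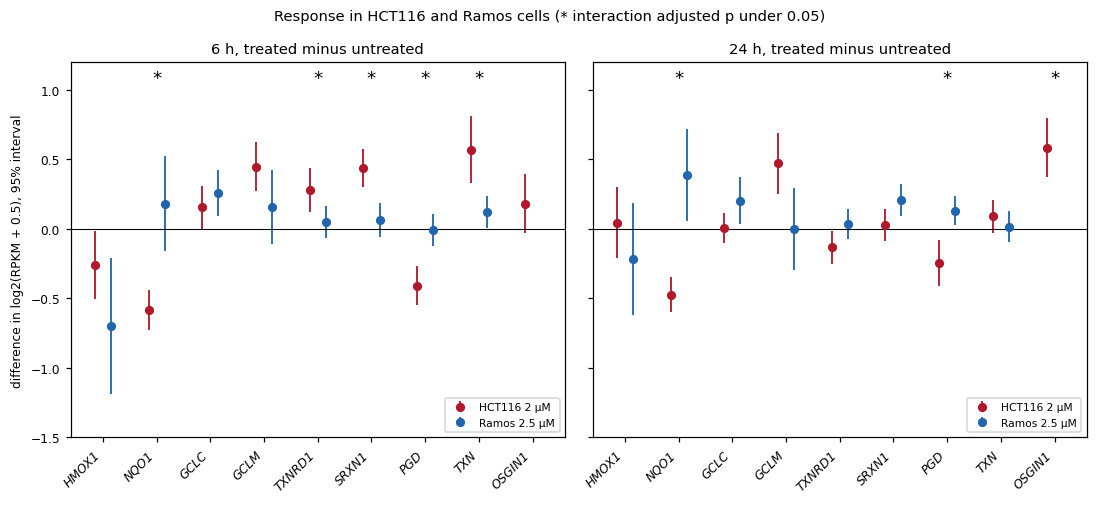
Difference in log2(RPKM + 0.5) from untreated cells, with 95% intervals, for HCT116 cells at 2 µM (red) and Ramos cells at 2.5 µM (blue) at 6 h and 24 h; stars mark genes whose interaction of line and treatment was called, and OSGIN1 has no Ramos point because it was not tested against untreated Ramos cells, its star resting on the HCT116 levels. The NQO1 points of the lines lie on opposite sides of 0 at both times, with interactions of -0.77 and -0.86. Neither Ramos NQO1 difference was called, and at 6 h its 95% interval was -0.16 to 0.52.

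Between 6 and 24 h at 2 µM, TXN, TXNRD1 and SRXN1 came down in HCT116 cells. Here 5 of 9 genes were called (40.8% of all 14775 genes, 30.9% higher and 9.85% lower): TXN (-0.48 ± 0.11), TXNRD1 (-0.41 ± 0.07) and SRXN1 (-0.41 ± 0.06) were lower at 24 h, and OSGIN1 (0.40 ± 0.10) and HMOX1 (0.30 ± 0.10) were higher. The all-gene median was 0.16 higher at 24 h, and neither the OSGIN1 nor the HMOX1 rise was called with median-ratio or quantile scaling. The HMOX1 call was lost under 9 alternatives in all, among them the omission of any 6 h library or of replicate 1 or 3 at 24 h. The TXNRD1 and SRXN1 falls were not called with an equal sum (limma adjusted p = 0.071 and 0.052), and the TXN fall was. The share of called genes that were higher at 24 h was 75.8%, and 41.8% with median-ratio scaling. At 10 µM only GCLM was called (0.46 ± 0.11, adjusted p = 0.042, limma; 7.86% of all genes, 5.8% higher and 2.06% lower), and the call was lost under 10 alternatives. Without the library that stood apart 6 of the 9 genes were called at 10 µM, where calls among all genes went from 1173 of 14920 to 3506 of 14936, 2514 higher and 992 lower: GCLM (0.45), HMOX1 (0.46), PGD (0.30) and NQO1 (0.27) higher, and TXNRD1 (-0.37) and SRXN1 (-0.31) lower.

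In Ramos cells HMOX1 was higher at 24 h than at 6 h with 500 nM, at 1.52, 1.16 and 1.22 RPKM against 0.403 to 0.456 RPKM (0.94 ± 0.17, adjusted p = 0.0032, limma). TXN was the other gene called there, at -0.14 ± 0.05, a call lost under 11 alternatives (2 of 8 genes; 25.4% of all genes, 11.9% higher and 13.5% lower). With 2.5 µM PGD (0.14), SRXN1 (0.14) and TXN (-0.10) were called (3 of 8; 23% of all genes, 12.7% higher and 10.4% lower), each with a limma adjusted p between 0.045 and 0.049 and each lost under at least 9 alternatives.

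The doses hardly separated these genes. No member was called between 10 and 2 µM in HCT116 cells at 6 h or 24 h (0% and 0.18% of all genes) or between 2.5 µM and 500 nM in Ramos cells at 6 h (0.429%). At an unadjusted p under 0.05 in these limma fits, 1, 0 and 1 of the genes passed. Among all genes 1242 of 14601, 1739 of 15039 and 1373 of 13511 passed, in this order. The 95% intervals of the HCT116 dose differences lay within -0.72 to 0.55 at 6 h and -0.38 to 0.44 at 24 h. These bounds are the outermost ends over the genes, and the intervals of single genes were narrower. That of NQO1 at 6 h, unadjusted, was -0.62 to -0.023 and excluded 0 (-0.32 ± 0.13, adjusted p = 0.58, limma). In Ramos cells at 24 h SRXN1 was called (0.30 ± 0.05, adjusted p = 0.016; 4.25% of all genes), at 18.02 to 18.1 RPKM with 2.5 µM and 14.2 to 14.8 RPKM with 500 nM. This call was lost when any 1 of the 3 libraries at 2.5 µM was left out and without the trend.

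NRF2 itself changed little in RNA. NFE2L2 was at 37.1 to 42.8 RPKM in untreated HCT116 cells and 31.4 to 49.4 RPKM in the treated ones, with differences of 0.17, -0.17, 0.06 and -0.21 at 2 µM 6 h, 2 µM 24 h, 10 µM 6 h and 10 µM 24 h, none called; with an equal sum the last, at -0.39, was called. In Ramos cells it was called only at 2.5 µM and 6 h (-0.16 ± 0.05, adjusted p = 0.040, limma), and this call was lost under 8 alternatives. KEAP1, which holds NRF2 down, rose in Ramos cells at 6 h from 27.3 to 33.5 RPKM untreated to 41.5 to 42.7 RPKM with 500 nM (0.49 ± 0.07) and 43.8 to 44.6 RPKM with 2.5 µM (0.55 ± 0.07), and both calls held under every alternative. In HCT116 cells KEAP1 was called once, at 10 µM and 24 h (0.20 ± 0.05), and that difference was 0.013 with an equal sum.

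The partner and repressor of NRF2 on AREs also moved. MAFF, a small MAF protein, rose in HCT116 cells from 4.48 to 4.89 RPKM untreated to 17.8 to 19.7 RPKM with 2 µM at 6 h (1.90 ± 0.08, adjusted p = 1.4e-06, limma). With 10 µM at 6 h it was at 14.3 to 19.2 RPKM (1.78 ± 0.14), and both calls held under every alternative. At 24 h it was at 4.07 to 6.11 RPKM with 2 µM and 3.77 to 3.93 RPKM with 10 µM, so the 6 h rise was no longer seen; the 10 µM, 24 h difference (-0.27) was called and was lost under 9 alternatives. BACH1 fell at 24 h in HCT116 cells (-0.21 ± 0.06 with 2 µM and -0.29 ± 0.08 with 10 µM) and at 6 h with 500 nM in Ramos cells (-0.40 ± 0.10); these calls were lost under 6, 1 and 4 alternatives.

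Beside the 9 genes, 85 other genes of the pathway were counted in 8 lists, of which 74 were tested in HCT116 and 60 or 61 in Ramos comparisons. In HCT116 cells 18 were higher and 18 lower at 2 µM and 6 h, 12 and 15 at 2 µM and 24 h, 2 and 20 at 10 µM and 6 h, and 17 and 20 at 10 µM and 24 h. Among all genes 15.5% were higher and 31.8% lower, then 16.6% and 10.8%, 8.84% and 21.2%, and 19.5% and 15.7%, in this order. The lists were not counted without replicate 3 at 10 µM and 6 h. Leaving it out moved the all-gene calls there from 1307 higher and 3132 lower to 2965 and 4600. With an equal sum of RPKM the HCT116 list splits became 2 and 44, 3 and 25, 1 and 41, and 5 and 31. The higher share of all called genes was then 6.76%, 23.0%, 4.28% and 20.4%. In Ramos cells 12 were higher and 6 lower at 500 nM and 6 h, 0 were called at 500 nM and 24 h, 17 and 4 at 2.5 µM and 6 h, and 7 and 1 at 2.5 µM and 24 h. Among all genes 13.8% were higher and 9.73% lower, then 0.0146% and 0%, 17.3% and 10.7%, and 3.3% and 1.31%, in this order. With an equal sum the 3 Ramos list splits with calls became 16 and 2, 25 and 2, and 34 and 1. The higher share of all called genes was then 79.8%, 85.2% and 97.4%.

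In the glutathione list SLC7A11, the cystine carrier that feeds glutathione synthesis, fell in all 4 HCT116 groups. It was at 19.3 to 22.2 RPKM in untreated HCT116 cells and 6.74 to 8.13 RPKM with 2 µM at 6 h (-1.42 ± 0.09, adjusted p = 1.2e-05, limma). The level was 9.46 to 10.1 RPKM with 2 µM at 24 h (-1.04 ± 0.07), 7.16 to 8.72 RPKM with 10 µM at 6 h (-1.36 ± 0.11) and 11.2 to 13.5 RPKM with 10 µM at 24 h (-0.75 ± 0.08). In Ramos cells SLC7A11 fell at 6 h from 6.40 to 6.69 RPKM to 3.47 to 4.29 RPKM with 500 nM (-0.71 ± 0.10) and 3.15 to 3.37 RPKM with 2.5 µM (-0.89 ± 0.09), and it was not called at 24 h. These 6 calls held under every alternative. So SLC7A11 was lower in the same 2 µM and 10 µM, 24 h libraries in which GCLM was higher. In the glutathione list as a whole, 2 genes were higher and 4 lower of 18 tested at 2 µM and 6 h, and 3 and 8 at 10 µM and 24 h. Among all genes 15.5% were higher and 31.8% lower in the former and 19.5% and 15.7% in the latter. With an equal sum the list splits were 0 and 16, and 1 and 10, where 6.76% and 20.4% of all called genes were higher.

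Catalase (CAT), which breaks down hydrogen peroxide, fell in all 4 HCT116 groups. It was at 37.8 to 39.6 RPKM in untreated cells, 19.7 to 20.6 RPKM with 2 µM at 6 h (-0.93 ± 0.06), 23.4 to 29.3 RPKM with 2 µM at 24 h (-0.55 ± 0.08), 13.7 to 18.4 RPKM with 10 µM at 6 h (-1.22 ± 0.13) and 22.5 to 26.5 RPKM with 10 µM at 24 h (-0.70 ± 0.07). All 4 calls held under every alternative, and CAT was called in no Ramos comparison. AKR1C3, an aldo-keto reductase, was at 0.852 to 1.19 RPKM in untreated HCT116 cells and 0.0852 to 0.221 RPKM with 10 µM at 6 h (-1.22 ± 0.18, adjusted p = 0.0033, limma), replicate 3 being the lowest. The difference with 2 µM at 6 h was -0.88 ± 0.23 (adjusted p = 0.011, limma). At 24 h the gene was not called at 2 µM (-0.31) or 10 µM (-0.33). These levels are near the pseudocount, and the 10 µM, 6 h value ran from -2.14 to -0.81 over the alternatives, always called. TXNIP, which binds and inhibits thioredoxin, was at most 0.304 RPKM in HCT116 libraries and was not tested there; in Ramos cells it fell at 6 h from 9.75 to 11.2 RPKM to 5.07 to 5.58 RPKM with 500 nM (-0.86 ± 0.09) and 5.25 to 5.97 RPKM with 2.5 µM (-0.83 ± 0.09).

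In the list of other NADPH-supplying genes, 5 of 6 were lower and 1 higher in HCT116 cells with 2 µM at 6 h, where 31.8% of all genes were lower and 15.5% higher. With 10 µM at 6 h 2 of 6 were lower and 0 higher, against 21.2% and 8.84% of all genes. This count was not repeated without replicate 3 of that group. In Ramos cells at 6 h 2 of 5 were higher and 0 lower with 500 nM, where 13.8% of all genes were higher. With 2.5 µM 3 of 5 were higher and 0 lower, where 17.3% of all genes were higher. With median-ratio scaling the counts at 2 µM in HCT116 and 2.5 µM in Ramos cells were 2 lower and 1 higher, and 3 higher. IDH1, the cytosolic NADPH-making isocitrate dehydrogenase, was named after its values were seen. It went from 51.3 to 57.6 RPKM to 34.0 to 35.0 RPKM in HCT116 cells (-0.64 ± 0.06) and from 17.1 to 18.5 RPKM to 27.5 to 31.3 RPKM in Ramos cells (0.70 ± 0.06), with an interaction of -1.34 ± 0.09 (adjusted p = 2.1e-06, limma). Both changes of IDH1 were called under every alternative.

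**Figure D4:**
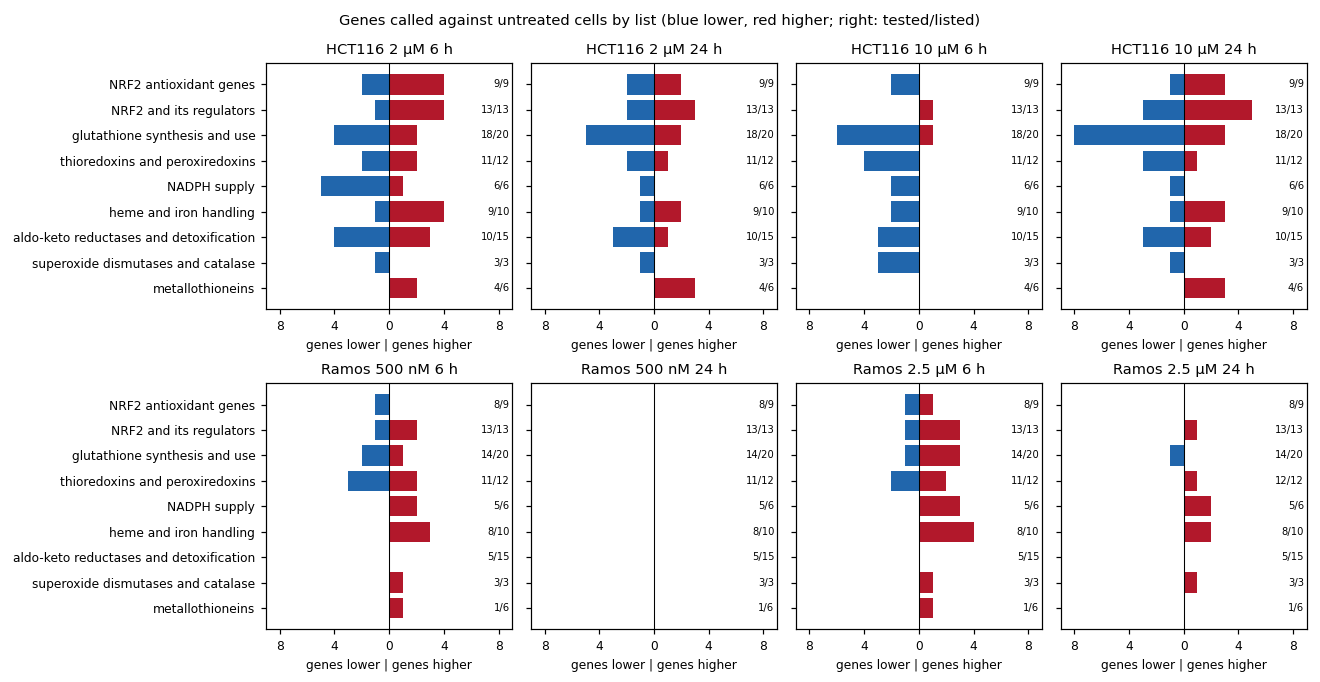
Number of genes called lower (blue, left) and higher (red, right) than in untreated cells in the 9 genes and in 8 other lists of the pathway, by dose and time; the number tested and listed stands at the right of each row. The NADPH row points left in HCT116 cells at 2 µM and 6 h (5 lower, 1 higher) and right in Ramos cells at 2.5 µM and 6 h (3 higher). Among all genes 31.8% were lower and 15.5% higher in that HCT116 comparison, and 10.7% lower and 17.3% higher in that Ramos comparison. With an equal sum of RPKM most HCT116 bars point left.

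Each of the 9 is a protein-coding gene with its span from GENCODE on GRCh38: HMOX1 on chromosome 22 (35380361 to 35394214), NQO1 on 16 (69706996 to 69726951), GCLC on 6 (53497341 to 53616970), GCLM on 1 (93885205 to 93909456), TXNRD1 on 12 (104215779 to 104350305), SRXN1 on 20 (646615 to 653370), PGD on 1 (10398592 to 10420144), TXN on 9 (110243811 to 110256640) and OSGIN1 on 16 (83948282 to 83966332). Genes that overlap them were low in all 30 libraries, the highest being EID3, within TXNRD1, at no more than 5.94 RPKM. AC009119.2, which overlaps OSGIN1 on the same strand, reached 1.2 RPKM, and how reads in the shared part were assigned is not given in the sources used here.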

How the data were processed

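RNA-Seq covered 30 libraries in 10 groups of 3. The authors deposited RPKM for 57992 genes; the submitters' processing notes name RSEM, and the aligner, build and annotation are not given in the sources used here. Depth is unknown, so no interval or floor based on counts is given. Symbols and spans came from GENCODE 29 (57388 rows matched, 604 did not). Log2(RPKM + 0.5) was fitted with limma 3.58.1 (R 4.3.3; lmFit, eBayes with trend), for the groups compared, over genes averaging 0.5 RPKM or more, with Benjamini-Hochberg adjustment over all genes. There were 19 comparisons. An exact permutation test of 3 against 3 cannot go below p = 0.1 and was not used. The procedure was tested on simulated data. Alternatives were other pseudocounts (0.1, 1), filters, scalings, eBayes without trend, a replicate block, all groups in one fit and leaving out each library. The genes, lists and tests were chosen with earlier results of these data known. Other pathway genes were named if called with an absolute log2 difference of at least 1, with NFE2L2, KEAP1, BACH1, SLC7A11 and TXNIP in any case; IDH1 was added after its values were seen.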

Additional observations from a re-analysis of the deposited data

Results flagged for a closer look

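The responses of HCT116 cells to 2 µM and Ramos cells to 2.5 µM Omomyc differed by the limma interaction test for NQO1 (-0.77), TXNRD1 (0.23), SRXN1 (0.37), PGD (-0.40) and TXN (0.45) at 6 h, and for NQO1 (-0.86), PGD (-0.38) and OSGIN1 (0.78) at 24 h, each as the log2 change in HCT116 minus that in Ramos cells. The NQO1 difference was called under every alternative, at both times, though the Ramos change of NQO1 was itself not called. At 6 h that of TXNRD1 was lost under 15 alternatives, TXN under 3, SRXN1 under 1 and PGD under 1, and at 24 h those of PGD and OSGIN1 under 4 each. OSGIN1 was not tested in Ramos cells alone and passed the filter only through HCT116 cells, so its value is no measure of a Ramos response. Tissue and the labelled dose also differ between the lines, as may the delivery reagent, and these cannot be told apart.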

How the results depend on the processing

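Over the 9 genes, 16 of 36 tests against untreated HCT116 cells were called (12 to 22 under the alternatives, 13 to 20 with 1 library left out, the highest without replicate 3 of HCT116 at 10 µM and 6 h). In Ramos cells 3 of 32 were called, 1 with no filter and 9 with an equal sum of RPKM (1 to 3 with 1 library left out). Of the 24 h against 6 h tests 11 of 34 were called, 6 with no filter, median-ratio scaling, quantile normalization or eBayes without trend, 7 with the replicate block, and 8 to 16 with 1 library left out. Of the dose tests 1 of 34 was called, 4 with an equal sum and 0 without trend (0 to 1 with 1 library left out). Of the interactions 8 of 18 were called, 5 with no filter or with the replicate block and 3 with all groups in one fit (7 to 9 with 1 library left out). The 9 calls between untreated lines stayed at 9. With an equal sum TXNRD1 at 2 µM and 6 h in HCT116 cells turned to -0.058, the 6 h interactions of TXNRD1, SRXN1 and TXN to -0.25, -0.10 and -0.027, and the 24 h interaction of TXN, uncalled before, to -0.29 and called. The causes were not tested. Same-numbered replicates did not deviate together, so the replicate block was used only as an alternative and is counted among the alternatives above. The depth is unknown, and genes under about 1 RPKM (OSGIN1, HMOX1 and MAFF in Ramos, AKR1C3 in HCT116) are the least certain. Leaving out single libraries ended the calls of PGD at 2 µM and 24 h (any untreated library, or treated replicate 1 or 3), PGD at 10 µM and 6 h (any untreated library), HMOX1 in Ramos cells at 2.5 µM and 6 h (untreated replicate 1 or 3, treated 1 or 2) and GCLC there (untreated 2 or 3, or any treated library). Counts of all genes called moved by over 1.5 times from 4071 to 1113 (2 µM, 24 h) and 5220 to 2535 (10 µM, 24 h) with all groups in one fit, 4439 to 7235 (10 µM, 6 h) and 6317 to 9881 (6 h interaction) with an equal sum, and 3209 to 2008 (Ramos, 500 nM, 6 h), 3462 to 2307 (Ramos, 500 nM, 24 h against 6 h) and 3125 to 2040 (Ramos, 2.5 µM, 24 h against 6 h) with no filter. They ranged from 24 to 5362 around 627 (Ramos, 2.5 µM, 24 h), 256 to 4297 around 1173 (10 µM, 24 h against 6 h), 1238 to 6397 around 2565 (24 h interaction) and 54 to 2567 around 579 (Ramos doses, 24 h); the other dose counts (0, 27 and 58) and the 2 genes at 500 nM and 24 h in Ramos cells reached at most 137, 47, 91 and 4. With 1 library left out the counts fell to 2167 (2 µM, 24 h) and 1813 (10 µM, 6 h), both without untreated replicate 3, to 1853 (Ramos, 500 nM, 6 h) without treated replicate 2, to 2256 (Ramos, 500 nM, 24 h against 6 h) without the 6 h replicate 2, to 2446 (Ramos, 2.5 µM, 6 h) without treated replicate 3, to 60 (Ramos, 2.5 µM, 24 h) without treated replicate 2, and to 161 (10 µM, 24 h against 6 h) without the 24 h replicate 2, which became 3506 without the 6 h replicate 3.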

Other observations

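The genes whose pattern was most like that of a member were sought over the 8 differences of treated from untreated group means, 4 per line, among 1438 genes that moved by at least 1 on the log2 scale. These differences share the untreated libraries of each line, so the correlations are a description only. For NQO1 the closest were NIPSNAP1 (r = 0.982), WDTC1 (r = 0.979) and the pseudogene HNRNPA1P48 (r = 0.972), whose reads may be shared with its parent gene. NIPSNAP1 had differences of -1.02, -0.73, -1.43 and -0.87 in HCT116 and between -0.30 and 0.11 in Ramos cells. For HMOX1 the closest were SH2D3C (r = 0.956), RHOC (r = 0.938) and MAP2K6 (r = 0.930). RHOC was at -0.80 and -0.97 in Ramos cells at 6 h and 0.19 and -0.42 at 24 h. The other members moved by under 1 over the 8 differences and were not matched.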
